A study of Mus musculus with 8 samples.

Results

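The genes described here are 10 transcription factor genes that direct the formation and early patterning of mesoderm: T, Eomes, Mixl1, Gsc, Mesp1, Mesp2, Tbx6, Hand1, Hand2 and Nkx2-5. They were taken by name, with no threshold on any timing value, and they are 10 of 21078 protein-coding genes that had a replication timing score. The scores come from E14Tg2a mouse embryonic stem cells, a male line of 129/Ola background, and subclones of it, in which the architectural protein CTCF carries an auxin-inducible degron, a tag that marks the protein for destruction when auxin is added. Both groups carry the degron: for 2 days the auxin group received 500 µM of indole-3-acetic acid, which acts as an auxin, and the control group did not. Each group has 2 replicates, each joining 1 library of early with 1 of late S-phase cells, labelled with BrdU for 2 hours and sorted by DNA content, from 40000 cells per fraction, so that 8 libraries give 4 profiles. No group of cells without the degron was given auxin, CTCF protein is not measured in the files, and they hold no expression, so neither the depletion nor the labelled cell type could be checked, and loss of CTCF cannot be told apart from exposure to the hormone.

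CTCF binds DNA at insulators through its zinc fingers and, where it stops cohesin, holds the bases of chromatin loops. Replication timing is the order in which chromosome regions are copied during S phase: large regions replicate early or late as units, joined by transitions in which timing changes steadily along the chromosome, and early replication generally goes with open, gene-rich chromatin. Mesoderm forms at gastrulation, when epiblast cells pass through the primitive streak under Nodal, Wnt, Bmp and Fgf signals. The T-box factors T (Brachyury) and Eomes and the homeobox factors Mixl1 and Gsc act in the streak, Mesp1, Mesp2 and Tbx6 in nascent and presomitic mesoderm, and Hand1, Hand2 and Nkx2-5 in lateral plate and heart mesoderm. In embryonic stem cells kept undifferentiated these genes are largely silent, and many carry the paired active and repressive marks of bivalent promoters.

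A score was read for each gene as the mean of the 6-kb windows over its body, and again, because most of these genes are short, as the mean of all windows within 50 kb of its start, here called its neighbourhood. Higher scores are earlier: the regions in the authors' deposited early-to-late list score lower with auxin. The sources used here give neither the formula of the score nor a log base, so a difference is in score units and not a fold. Genes above 0.5 are called early, those below -0.5 late and those between middle. The number of reads behind a score is unknown, since no file gives counts. The replicate profiles correlated at 0.980 for control and 0.984 for auxin over all windows, with a median absolute difference between replicates of 0.254 and 0.230. The difference between replicates was itself shared by neighbouring windows, with a correlation of 0.978 in control and 0.976 in auxin, so windows side by side are not independent measurements.

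All 10 genes were early over the gene body on the mean of the control profiles, although Hand2, at 0.51, was close to the cutoff. In the neighbourhood Hand2 was middle, at 0.41, and the others were early. The genes fell into 2 kinds by whether late bins lay near them, a split drawn from these profiles and not set beforehand. T, Eomes, Gsc and Hand2 lay on or beside a timing transition, with 3 to 9 late 50-kb bins within 500 kb and control scores from 0.51 to 1.91 over the gene body, and in each of them both auxin profiles scored below both control profiles. Mixl1, Mesp1, Mesp2, Tbx6, Hand1 and Nkx2-5 lay in early regions with 0 late bins in that distance and control scores from 2.69 to 3.63, and in each of them the auxin and control profiles overlapped. The control score parts the same 2 kinds, so late bins nearby cannot be told apart from the level of the gene. Hand1 and Nkx2-5 also had lower scores nearby, with lowest control bins of 0.31 and 0.17. The local slope does not part the 2 kinds. Fitted across 100 kb on each side, the mean control slope per 100 kb was 0.53 at Hand1. It was 0.52 at Gsc, 0.08 at Eomes, -0.88 at T and 1.06 at Hand2. The count of 4 genes with separate, later auxin profiles is to be read against 25.9% of all genes with the same pattern, and the count of 0 with separate, earlier profiles against 23.9%. No gene of the 10 passed the test at an adjusted p under 0.05, nor did any other gene by this measure (limma, 0% of 21078 called, 17.1% at an unadjusted p under 0.05). The plot of the scores in every profile shows both kinds of gene by both measures.

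**Figure D1:**
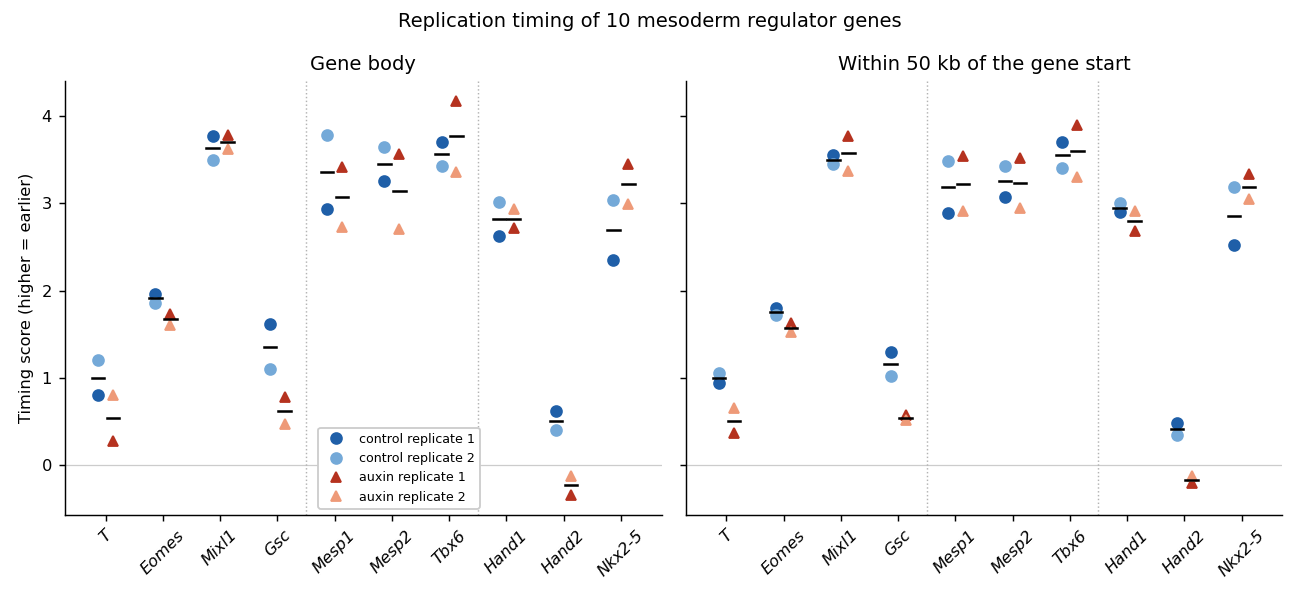
Timing score (vertical axis, score units, higher is earlier) of each gene over its body (left) and within 50 kb of its start (right). Points are single profiles (blue circles control, red triangles auxin), short bars are group means, and dotted lines part streak, presomitic and heart genes: T, Eomes, Gsc and Hand2 have both auxin points below both control points, and the other 6 genes overlap.

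The promoters of 4 of the genes are printed here, chosen after their values were seen: T, Gsc and Hand2, because their neighbourhoods had the largest differences of the 10, and Mesp1, an early gene whose profiles overlapped and whose promoter has the fewest CpG dinucleotides of the 8 promoters matched. RefSeq's table for GRCm38.p6 held 8 of the 10 genes, without Mixl1 and Hand1. Each sequence runs 5′ to 3′ on the gene's own strand, from 250 bases before the start to 50 after it, and capitals mark CpG dinucleotides.
T (chr17:8434173-8434472, plus strand): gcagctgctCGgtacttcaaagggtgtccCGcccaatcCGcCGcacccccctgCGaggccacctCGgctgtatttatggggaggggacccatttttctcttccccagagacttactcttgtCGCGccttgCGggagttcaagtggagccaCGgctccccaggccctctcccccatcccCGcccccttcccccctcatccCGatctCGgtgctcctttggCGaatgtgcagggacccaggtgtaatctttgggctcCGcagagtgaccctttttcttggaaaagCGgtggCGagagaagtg
Gsc (chr12:104473187-104473486, minus strand): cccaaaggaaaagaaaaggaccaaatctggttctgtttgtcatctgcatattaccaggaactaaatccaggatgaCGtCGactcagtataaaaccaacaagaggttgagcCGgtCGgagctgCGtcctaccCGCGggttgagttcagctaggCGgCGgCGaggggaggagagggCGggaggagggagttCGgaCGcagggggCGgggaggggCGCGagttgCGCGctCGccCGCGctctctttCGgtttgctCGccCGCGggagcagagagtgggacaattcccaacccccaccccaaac
Hand2 (chr8:57320733-57321032, plus strand): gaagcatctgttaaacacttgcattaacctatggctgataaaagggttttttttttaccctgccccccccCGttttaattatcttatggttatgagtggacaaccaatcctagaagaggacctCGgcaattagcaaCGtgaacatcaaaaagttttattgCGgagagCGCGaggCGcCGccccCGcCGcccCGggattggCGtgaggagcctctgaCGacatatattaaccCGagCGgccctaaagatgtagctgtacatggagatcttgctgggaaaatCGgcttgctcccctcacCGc
Mesp1 (chr7:79793541-79793840, minus strand): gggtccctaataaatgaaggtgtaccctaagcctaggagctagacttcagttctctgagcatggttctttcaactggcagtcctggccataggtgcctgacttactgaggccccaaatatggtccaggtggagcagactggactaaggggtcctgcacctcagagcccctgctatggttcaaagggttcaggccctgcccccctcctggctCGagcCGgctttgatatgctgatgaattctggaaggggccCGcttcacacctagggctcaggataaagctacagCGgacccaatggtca
The Gsc promoter held 25 CpG dinucleotides, T and Hand2 17 each, Eomes and Mesp2 10 each, Nkx2-5 9, Tbx6 7 and Mesp1 4, against a median of 7 over 32851 promoters. Counts above the median were found in both kinds of gene. On both strands 3 short spellings were searched. AGGGGGC, a core part of the CTCF motif, was found in T, Gsc and Tbx6 and in 10.6% of all promoters. The T-box spelling AGGTGTGA was found in Mesp1 alone, on the opposite strand 5 bases after the start, and in 1.28% of all promoters. The E-box spelling CATCTG was found in Gsc, Mesp2 and Hand2 and in 17.2% of all promoters. These are matches of letters in a short window and were not tested as binding sites.

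Of the streak genes, T encodes Brachyury, the T-box factor needed for posterior mesoderm and notochord, and lies at chr17:8434423-8442496. Over its 3 windows the controls scored 0.80 and 1.20 and the auxin profiles 0.27 and 0.80, a mean of 1.00 ± 0.29 (SD, n = 2) against 0.54 ± 0.37 (SD, n = 2). The groups only just missed each other, at 0.7998 for the lower control and 0.7997 for the higher auxin profile. Within 50 kb of the start, 17 windows gave 0.94 and 1.05 in controls and 0.37 and 0.65 with auxin, and here the groups were clearly apart. The difference was -0.46 over the body (SE 0.27, limma adjusted p = 0.412) and -0.48 in the neighbourhood (SE 0.20, adjusted p = 0.191). Single profiles moved the body value, which was -0.20 when auxin replicate 1 was left out, -0.26 for control replicate 2 and -0.73 for auxin replicate 2. In the control cells 38.0% of genes were later than T over the body.

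Eomes, a T-box factor required for definitive endoderm and for mesoderm cells to leave the streak, lies at chr9:118478186-118486132 and holds 2 windows. Its controls scored 1.96 and 1.86 and its auxin profiles 1.73 and 1.61, so that both replicates of each group were close together and the auxin pair was lower. The difference was -0.24 (SE 0.20, limma adjusted p = 0.573), from 1.91 ± 0.07 to 1.67 ± 0.09 (SD, n = 2 each). Its neighbourhood gave 1.80 and 1.72 in controls against 1.63 and 1.52 with auxin, a difference of -0.18 (adjusted p = 0.600). Among all genes 55.7% had a larger absolute difference than Eomes over the body.

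Mixl1, a paired-type homeobox factor of the streak, was over the body the earliest of the 10 genes in control cells, earlier than 95.2% of all genes. Its 2 windows at chr1:180693043-180697034 scored 3.77 and 3.49 in controls and 3.78 and 3.62 with auxin. The groups overlapped, at 3.63 ± 0.20 and 3.70 ± 0.11 (SD, n = 2 each), with a difference of 0.07 (limma adjusted p = 0.893). Its neighbourhood overlapped too, with 3.55 and 3.45 in controls and 3.77 and 3.36 with auxin.

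Gsc (goosecoid), the homeobox gene of the organizer and anterior streak, had the largest difference of the streak genes. Its 2 windows at chr12:104471209-104473236 scored 1.61 and 1.10 in controls and 0.78 and 0.47 with auxin, and both auxin profiles lay below both controls, while the control replicates differed by 0.51. The mean went from 1.36 ± 0.36 to 0.63 ± 0.22 (SD, n = 2 each), a difference of -0.73 (SE 0.25, limma adjusted p = 0.236). Within 50 kb the separation was wider against the spread, with 1.29 and 1.02 in controls and 0.57 and 0.52 with auxin, a difference of -0.61 (SE 0.19, adjusted p = 0.115). Over the body 8.25% of all genes had a larger absolute difference.

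Of the genes of nascent and presomitic mesoderm, Mesp1 and Mesp2 are basic helix-loop-helix genes that lie 17.1 kb apart on chromosome 7. Mesp1 marks the earliest heart progenitors and Mesp2 sets somite boundaries. Because of their closeness their profiles within 500 kb are the same 20 bins, and they are not independent of each other. Mesp1 (chr7:79792241-79793590) overlaps no window, and the nearest one scored 2.94 and 3.78 in controls and 3.41 and 2.73 with auxin. Mesp2 (chr7:79810727-79813431) scored 3.26 and 3.64 in controls and 3.56 and 2.71 with auxin over 2 windows. In both genes the replicates of each group differed by more than the group means did. The differences were -0.29 (limma adjusted p = 0.707) and -0.31 (adjusted p = 0.650) at the gene, but 0.04 and -0.02 in the neighbourhood, where the groups also overlapped.

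Tbx6, the T-box factor that directs presomitic mesoderm away from a neural fate, lies at chr7:126781483-126785548. Its 1 window scored 3.70 and 3.42 in controls and 4.17 and 3.35 with auxin, so that the auxin replicates lay on either side of both controls. The difference was 0.20 over the body (limma adjusted p = 0.767) and 0.05 in the neighbourhood (adjusted p = 0.927). Tbx6 was earlier than 93.5% of genes in control cells.

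Of the lateral plate and heart genes, Hand1 and Hand2 encode related basic helix-loop-helix factors of the heart ventricles, and Hand1 acts in extraembryonic mesoderm and trophoblast as well. Hand1 (chr11:57828713-57832147) scored 2.63 and 3.02 in controls and 2.71 and 2.93 with auxin in its 1 window, the auxin values falling between the controls. Its means were 2.82 ± 0.27 and 2.82 ± 0.16 (SD, n = 2 each), the smallest difference of the 10 genes over the body. The Hand1 neighbourhood of 17 windows gave 2.90 and 3.00 in controls and 2.68 and 2.91 with auxin, a difference of -0.15 (limma adjusted p = 0.683). The groups overlapped there too, and the sign held under every alternative run, from -0.27 to -0.035. Hand2 (chr8:57320983-57324517) was the latest of the 10 and had the largest difference over the body, while in the neighbourhood that of Gsc was larger. Over its 2 windows the controls scored 0.62 and 0.40 and the auxin profiles -0.34 and -0.12, so that both auxin profiles were on the other side of 0. Its mean went from 0.51 ± 0.16 to -0.23 ± 0.16 (SD, n = 2 each), which moves it from the early to the middle class on the group means, although 1 control profile, at 0.40, was already middle. The difference of -0.74 (SE 0.21) had a limma adjusted p of 0.190, and 7.83% of genes had a larger absolute difference. The neighbourhood of 17 windows gave 0.49 and 0.34 in controls and -0.21 and -0.12 with auxin, a difference of -0.58 (SE 0.19, adjusted p = 0.118). By that measure Hand2 was middle in every profile, so the change of class is seen over the body alone.

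Nkx2-5, the homeobox factor of heart progenitors (chr17:26838664-26844988), was the only gene of the 10 with a difference above 0.5 towards earlier replication, although its groups overlapped. Over 2 windows it scored 2.34 and 3.04 in controls and 3.44 and 2.99 with auxin. The low value was that of control replicate 1, and the other 3 profiles lay between 2.99 and 3.44. The difference was 0.53 (SE 0.30, limma adjusted p = 0.407), and without control replicate 1 it was 0.18. In the neighbourhood the controls scored 2.52 and 3.18 and the auxin profiles 3.33 and 3.05, a difference of 0.34 (adjusted p = 0.458), which was 0.0038 without control replicate 1 and 0.67 without control replicate 2.

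Over the 10 genes the median difference was -0.26 over the body and -0.08 in the neighbourhood, against -0.00 and 0.00 over all genes, with 7 and 6 of the 10 differences below 0. By role, 3 of 4 streak genes, 0 of 3 presomitic genes and 1 of 3 heart genes had auxin profiles below both controls, by both measures. In the neighbourhood measure 27.3% of all genes had that pattern and 25.5% the opposite one. The test over neighbourhoods called 1.78% of 20731 genes (369, of which 240 later) and 0 of the 10, with the smallest adjusted p at 0.115 for Gsc. With 2 profiles against 2, an exact permutation test of any value cannot give a p below 0.333.

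A limma fit that lets the variance follow the score level and limits the weight of outlying genes (trended, robust) called more genes in all: 5.31% over gene bodies and 13.4% in neighbourhoods, of which 3.3% and 7.93% were later. In that fit Hand2 passed over the body (adjusted p = 0.0335), and T (0.0365), Gsc (0.00673) and Hand2 (0.0111) passed in the neighbourhood, all later with auxin. These 3 calls depended on single profiles. Leaving out 1 profile leaves its group with a single profile, which this fit assumes to vary like the other group's replicates. Without auxin replicate 1 only Gsc passed (-0.64, limma adjusted p = 0.0256), with T at -0.34 (0.389) and Hand2 at -0.54 (0.0616). Without control replicate 1 no gene of the 10 passed, although T was at -0.54 (limma adjusted p = 0.0508), Hand2 at -0.51 (0.0839) and Gsc at -0.47 (0.0875). Without auxin replicate 2 T, Gsc and Hand2 passed again. Without control replicate 2 Gsc, Hand2 and Nkx2-5 passed and T did not (-0.43, limma adjusted p = 0.125). Nkx2-5 was then earlier with auxin (0.67, adjusted p = 0.0498), a call that sets both auxin profiles against control replicate 1 alone, its lowest profile at 2.52.

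The level of a gene bears on how often it was called. Of the 4955 genes with a control neighbourhood score from 0 to 2, where T, Eomes, Gsc and Hand2 lie, the trended, robust limma fit called 14.7% later and 12.1% earlier, and in 34.1% both auxin profiles were below both controls. Of the 5807 genes above 3, where Mixl1, Mesp1, Mesp2 and Tbx6 lie, it called 1.05% later and 0.0689% earlier. The spread between replicates also differed with level, with a median absolute difference between control replicates of 0.165 for genes from 0 to 2 and 0.322 for genes above 3. The part of level and spread in the members' calls was not tested. The plot of all genes by control score shows T, Gsc and Hand2 in the lower part of the cloud and not at its edge, with 10.9%, 6.38% and 7.37% of genes at lower differences.

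**Figure D2:**
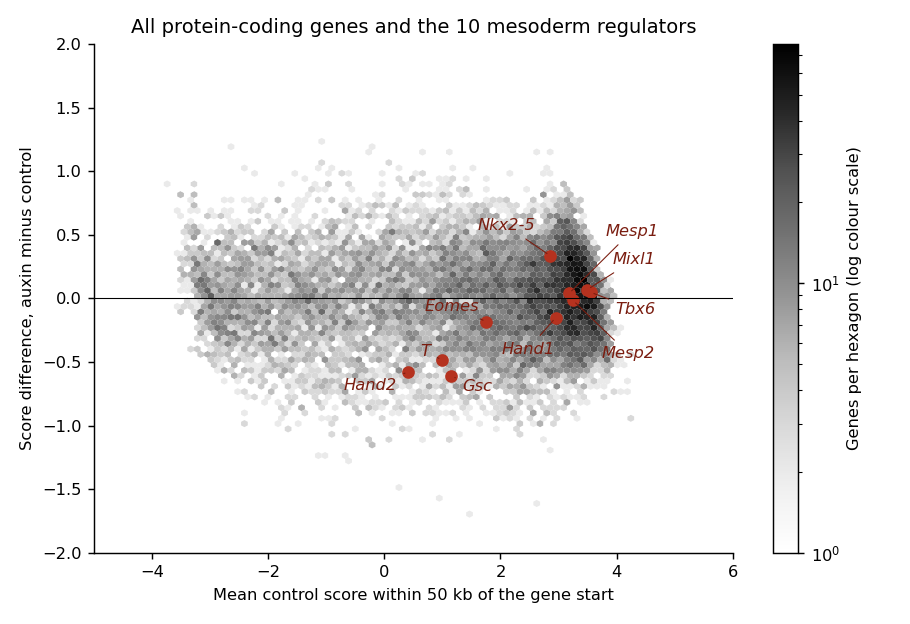
Difference in neighbourhood score between auxin and control (vertical axis, below 0 is later with auxin) against the mean control score (horizontal axis) for 20731 protein-coding genes, shaded by the number of genes per hexagon on a log colour scale, with the 10 genes in red. T, Gsc and Hand2 lie between -0.48 and -0.61, and of the 6 genes with control scores above 2, Nkx2-5 is at 0.34 and the other 5 lie between -0.15 and 0.07.

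In order of control gene-body score, Mixl1 was followed by Tbx6, Mesp2, Mesp1, Hand1 and Nkx2-5, and no neighbours in that stretch were apart in their replicates. Nkx2-5 and Eomes were apart, by 0.78, as were Eomes and Gsc, by 0.55, and T and Hand2, by 0.49, while Gsc and T overlapped. With auxin, Tbx6 came first, Nkx2-5 moved from place 6 to place 3, and the last 4 places were again Eomes, Gsc, T and Hand2. The gaps from Hand1 to Eomes and from Eomes to Gsc were then 1.15 and 1.05.

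The profiles within 500 kb were read in 50-kb bins with at least 3 windows, of which 179 distinct bins lie near the 10 genes. None of them passed limma over all 42710 bins, of which 1.66% did, although the smallest adjusted p among them was 0.053. Both auxin profiles lay below both controls in 62 of the 179 bins (34.6%, against 26.1% of all bins) and above them in 29 (16.2%, against 26.4%). The trended, robust limma fit called 18 of the bins later and 0 earlier, against 5.66% and 5.17% of all bins, and all 18 lay near T (4), Eomes (8), Gsc (1) or Hand2 (5). That fit seldom calls at high scores. Bins near Tbx6 and Mesp1, both at 0.88 towards earlier, had control scores of 3.35 and 3.18 and were not called (adjusted p = 0.101 and 0.084). A Hand2 bin at -0.85, with a control score of 1.15, was called (0.0027). By limma with no trend these 3 bins had adjusted p of 0.059, 0.058 and 0.065. The part of score level in the calls was not tested. Neighbouring bins share signal, so these bins are not separate events.

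**Figure D3:**
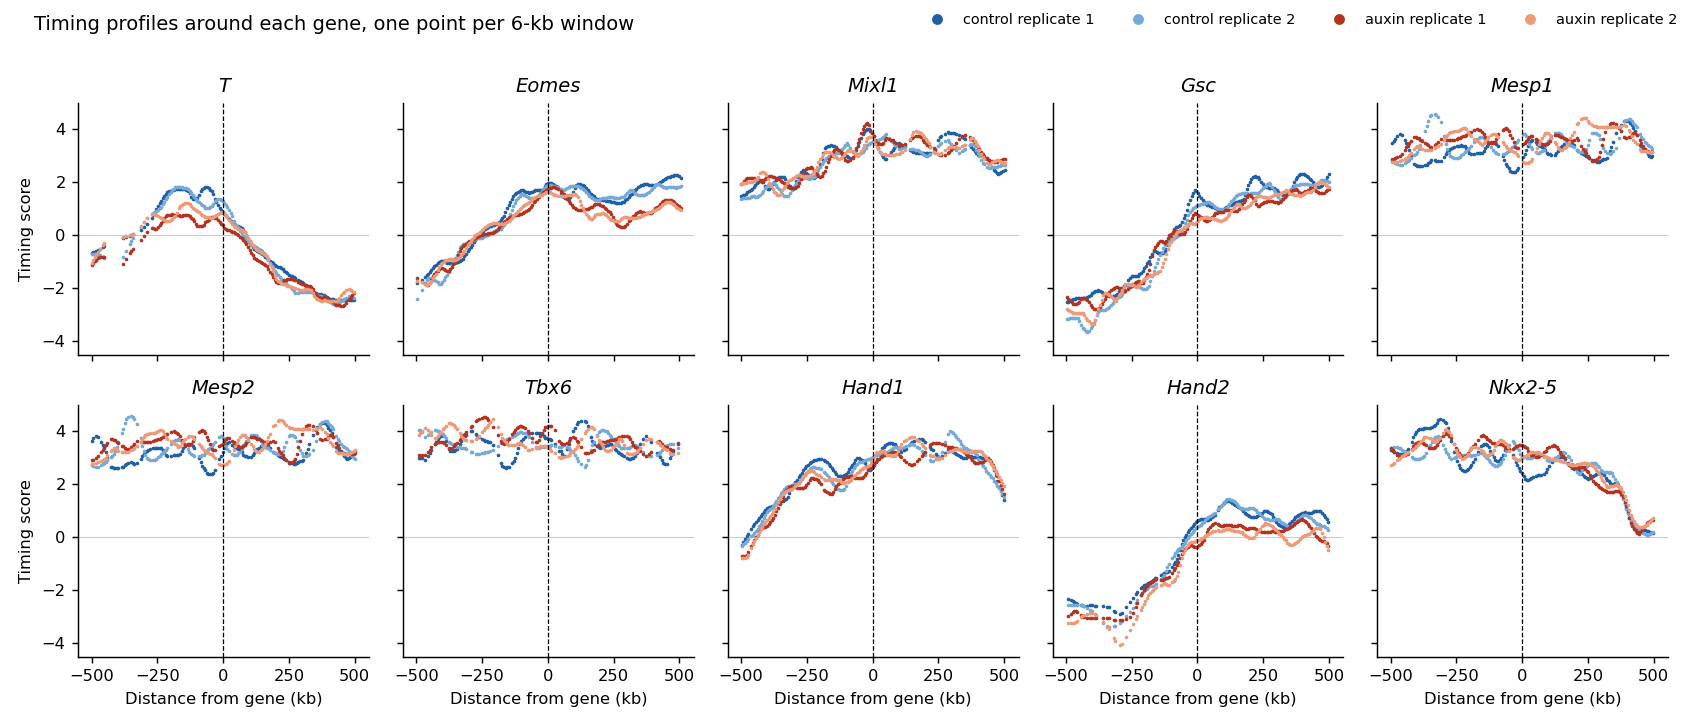
Timing score of every 6-kb window within 500 kb of each gene (vertical axis, score units) against distance from the gene along the chromosome in kb (horizontal axis, dashed line at the gene), with 1 colour per profile. T, Gsc and Hand2 sit on slopes between early and late stretches and Eomes on the shoulder of one, with red auxin points below blue control points on the early side, and Mesp1, Mesp2 and Tbx6 sit in stretches that are early throughout.

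T sits on the falling side of a small early domain. Distances are along the chromosome, negative towards lower coordinates. In all 4 profiles the earliest bin was centred at -159 kb from the gene, with 1.71 and 1.77 in controls and 0.74 and 1.06 with auxin, and the latest lay 391 to 491 kb beyond it, at -2.50 in controls and -2.56 with auxin on average. The latest bins differed by -0.06 between groups and the earliest by -0.84. A run of 7 adjoining bins, chr17:8150001-8500000, which holds T, had auxin below control throughout, at 1.23 against 0.60. Of these bins 4 were called by the trended, robust fit, and T's own bin (difference -0.51, adjusted p = 0.084) was not among them. The fitted slope across the 100 kb on each side of T was -1.02 and -0.74 per 100 kb in controls and -0.43 and -0.41 with auxin, so both auxin slopes were flatter.

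At Eomes, as at T and Hand2, the difference was larger away from the gene than in its own bin. Its own run of 4 bins, chr9:118300001-118500000, differed by -0.33, and a second run of 9 bins, chr9:118550001-119000000, by -0.76, from 1.66 to 0.90. In the bin centred 497 kb beyond Eomes the controls scored 2.16 and 1.82 and the auxin profiles 1.09 and 0.99. In both auxin profiles the bin that holds Eomes was the earliest of the stretch, at 1.69 and 1.57, whereas control replicates 1 and 2 were earliest 497 and 97 kb beyond the gene. In the latest bin of the stretch, at -453 kb, both auxin profiles lay below both controls, at -1.75 against -1.55 on average, a difference of -0.20. From there up to the gene's run, in the bins from -403 to -203 kb, the groups overlapped and the differences lay between 0.02 and 0.15.

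Gsc stands on the upper part of a rise from late to early, with the latest bins averaging -2.94 in controls and -2.95 with auxin. Its own bin averaged 1.30 in controls, and the highest control bin, at 2.06, lay 402 kb beyond the gene. On that late side the 9 bins up to -98 kb differed by no more than 0.22 in either direction. From the bin before Gsc onward a run of 7 bins, chr12:104400001-104750000, was later with auxin, at 1.29 against 0.85. The bin that holds Gsc had the largest difference of the stretch, from 1.49 and 1.11 in controls to 0.71 and 0.53 with auxin, and was the bin called by the trended, robust limma fit (adjusted p = 0.020).

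Around Hand2 the whole early side was lower. A run of 12 bins that covers 600 kb and holds the gene, chr8:57200001-57800000, averaged 0.60 in controls and -0.00 with auxin, and 10 bins were early in controls and 0 with auxin. The largest difference of these bins was -0.94, centred 104 kb beyond the gene, where the controls scored 1.27 and 1.30 and the auxin profiles 0.43 and 0.27. The highest bin of the stretch was 1.27 and 1.30 in controls and 0.58 and 0.42 with auxin. The bins on the late side differed by -0.60 to -0.19, and 16 of all 20 bins had auxin below both controls.

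None of the bins near the other 6 genes passed either limma fit. Within 500 kb of Mesp1, Mesp2 and Tbx6 the bins spanned a range of only 1.66 (Mesp1 and Mesp2) and 1.19 (Tbx6) on average in control profiles, against 3.54 to 5.03 around T, Eomes, Gsc and Hand2, and no bin was late. The ranges around Mixl1, Hand1 and Nkx2-5 were 2.21, 3.41 and 3.82, from lower scores at the ends of those stretches. Of all bins, 26.4% had auxin above both controls and 26.1% below. Around Mesp1 and Mesp2, which share their bins, 8 of 20 had auxin above both controls and 2 below. Around Mixl1 the counts were 7 above and 2 below, around Tbx6 3 and 0, around Hand1 2 and 8, and around Nkx2-5 8 and 2. The longest such run near these 6 genes was 5 bins before Nkx2-5, chr17:26550001-26800000, at 3.07 in controls and 3.41 with auxin.

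**Figure D4:**
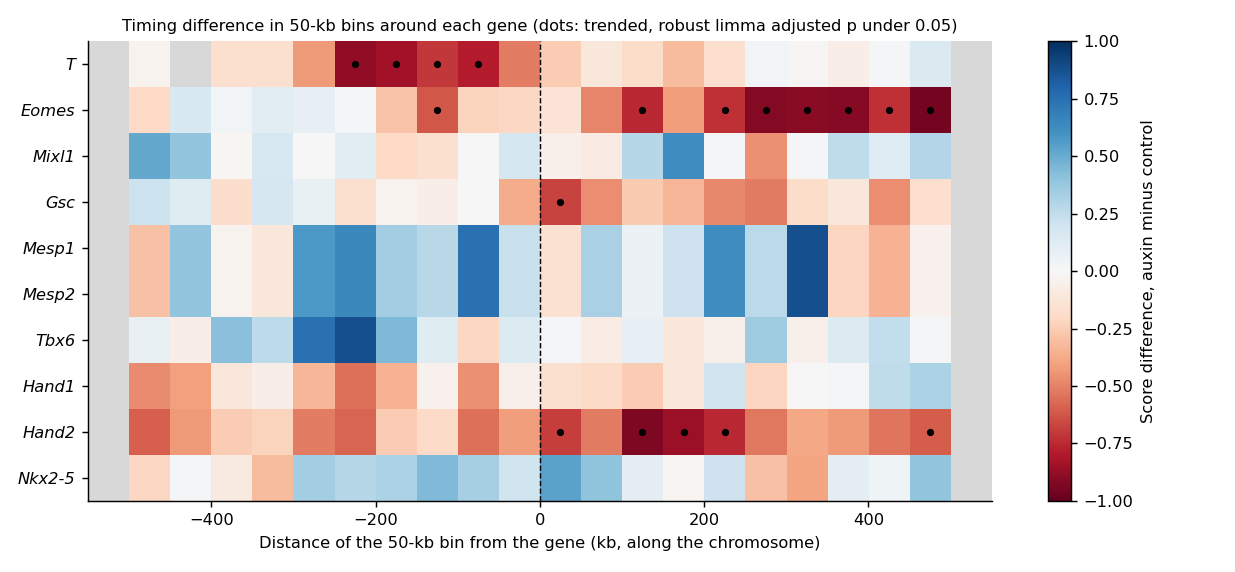
Score difference between auxin and control (colour, score units, red later and blue earlier with auxin) in 50-kb bins around each gene (rows) by distance along the chromosome in kb, with grey where a bin has too few windows or lies outside the stretch. Black dots mark the 18 bins called later by the trended, robust limma fit, near T, Eomes, Gsc and Hand2, and Mesp1 and Mesp2 share their bins.

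To set the gene apart from its surroundings, the mean of windows 100 to 500 kb from the start was taken from the neighbourhood score. By this measure Gsc stood 1.26 and 1.31 above its surroundings in controls and 0.79 and 0.87 with auxin, a difference of -0.45 (SE 0.18, limma adjusted p = 0.332), the largest of the 10. T stood 1.59 and 1.81 above in controls and 1.42 and 1.53 with auxin, a difference of -0.22, which was -0.11 without control replicate 2, -0.34 without control replicate 1 and -0.055 against surroundings to 300 kb only. Hand2 stood 0.81 and 0.80 above in controls and 0.59 and 0.91 with auxin, and Eomes 1.05 and 1.12 in controls and 1.37 and 1.26 with auxin. The Hand2 groups overlapped by this measure, and the Eomes auxin profiles lay above both controls. No gene of 20682 passed (0% called, 14% at an unadjusted p under 0.05), and the groups were apart downward in 27.2% of all genes and in 2 of the 10, and upward in 19.7% and in 1 of the 10.

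Around T and Hand2 most other genes also had both auxin profiles below both controls, and around Eomes and Gsc fewer did. Over the bodies of all genes 25.9% had that pattern and 23.9% the opposite one. The trended, robust limma fit called 3.3% of all genes later. Genes side by side share signal, so those near 1 member are not separate events. T2, the nearest gene below T at 11.7 kb, scored 1.53 and 1.15 in controls and 0.54 and 0.71 with auxin, and Ccr6, a chemokine receptor gene 176 kb away, 1.70 and 1.72 against 0.76 and 0.67. Pde10a, a phosphodiesterase gene on the late side of T, overlapped, at -1.79 ± 0.10 and -1.88 ± 0.05 (SD, n = 2 each). Of the 12 genes within 500 kb of T, 9 had auxin below both controls and 5 passed the trended, robust limma fit. Of the 5 genes near Hand2 all 5 did and 3 passed, among them Scrg1, the next gene beyond Hand2, at 1.19 and 1.28 in controls and 0.42 and 0.23 with auxin. Of the 7 genes near Eomes, 3 had auxin below both controls and 1 above, with a median difference of 0.048. Ctdspl, 440.4 kb beyond Eomes, differed by -0.89 and Golga4, next to Eomes, by -0.22, while the nearest gene below Eomes, LOC115486419, differed by 0.11 with both auxin profiles above both controls. Of the 17 genes near Gsc, 4 were below and 1 above, with a median of -0.047. Dicer1, the microRNA-processing enzyme gene next above Gsc, went from 1.98 and 1.72 to 1.23 and 1.41, and Serpina3n on the other side overlapped. By limma as first described none of these named genes passed, with adjusted p from 0.172 to 0.855; in the trended, robust fit Ccr6 (0.0126), Scrg1 (0.0156), Ctdspl (0.0199) and T2 (0.0461) did.

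Near the early genes the largest gene-body differences, among genes with at least 3 windows, ran the other way. The bins around Hand1 did not. There the largest bin difference was -0.55, later with auxin, and the largest towards earlier replication was 0.31. Eif3c, a translation initiation factor gene 215 kb from Tbx6, scored 3.59 and 3.22 in controls and 4.41 and 4.23 with auxin. Idh2, the mitochondrial isocitrate dehydrogenase gene near Mesp1 and Mesp2, differed by 0.86, Sde2 near Mixl1 by 0.65, Crebrf near Nkx2-5 by 0.54 and Zfp672 near Hand1 by 0.32. Each of these had both auxin profiles above both controls, and none passed either limma fit. The genes were taken as the largest difference within 500 kb, so their size describes an extreme.

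The other genes of mesoderm formation were read as 5 lists, shown in the plot of differences by list. They are described by counts and medians and set against 25.9% of all genes with both auxin profiles below both controls over the body, 23.9% with both above, and a median difference of -0.00. No gene of any list passed limma over the body. In the neighbourhood 27.3% of all genes were below and 25.5% above, with a median of 0.0032. The counts below and above were 5 and 4 for signal effectors (33.3% below) and 3 and 5 for other T-box genes (21.4%). They were 6 and 4 for paraxial genes (30%) and 12 and 5 for lateral genes (46.2%). The medians of these 4 lists were -0.077, 0.052, -0.11 and -0.12. The trended, robust limma fit called 5.31% of all genes over the body and 13.4% in the neighbourhood. Limma with no trend called 0% and 1.78%. In the neighbourhood the trended fit called 1 later and 0 earlier of 21 streak signals and 1 and 2 of 15 effectors. It called 0 and 0 of 14 other T-box genes, 1 and 1 of 20 paraxial genes and 2 and 1 of 26 lateral genes. The calls named below are to be read against these shares.

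Among 21 streak signals and their antagonists, 9 had auxin below both controls and 4 above, with a median difference of -0.09. In the neighbourhood the list lay near all genes, with 6 below (28.6%, against 27.3% of all genes) and 3 above and a median of -0.028. Fgf5, a growth factor of the epiblast, scored -1.64 and -1.73 in controls and -2.20 and -2.50 with auxin. Wnt3, the ligand that starts the streak, scored 3.44 and 3.01 against 2.66 and 2.65 (differences of -0.79 to -0.35 leaving out 1 profile), and Chrd, a secreted Bmp antagonist, differed by -0.23. In the neighbourhood measure Bmp4, a ligand that induces mesoderm from the extraembryonic side, passed the trended, robust limma fit, later with auxin (-0.49, adjusted p = 0.0466).

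Among 15 signal effectors and streak transcription factors, 5 were below and 5 above, with a median of -0.13, and the Smad genes went both ways. Smad1, a Bmp effector, scored 1.37 and 0.86 in controls and 1.98 and 1.76 with auxin, while Smad5, its close relative, scored -0.04 and -0.31 against -0.90 and -0.55. Fgfr1, an Fgf receptor, differed by -0.47 (-0.65 to -0.29 leaving out 1 profile). In the neighbourhood the trended, robust limma fit called Smad1 earlier (0.87, adjusted p = 0.000358), Sp5, a Wnt target, earlier (0.59, adjusted p = 0.0157) and Smad5 later (-0.55, adjusted p = 0.0254).

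Among the 14 other T-box genes 3 were below and 4 above, with a median of 0.03 and none called by either fit in either measure. Tbx1, a pharyngeal and heart outflow factor, scored 2.98 and 2.70 in controls and 3.80 and 3.23 with auxin, with differences of 0.40 to 0.96 leaving out 1 profile. Tbx19 differed by -0.44 and Tbx15 by -0.41, the groups being apart in each.

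Among 20 genes of paraxial mesoderm and somites 5 were below and 4 above, with a median of -0.03. Meox1, a somite homeobox gene, differed by -0.69, Pax3, of the dermomyotome, by -0.29 and Pax7, its relative, by 0.22, the groups of the last overlapping. Single profiles moved all 3: leaving out 1 at a time gave -1.10 to -0.28 for Meox1, -0.48 to -0.10 for Pax3 and 0.0083 to 0.43 for Pax7. Dll3, a Notch ligand of the somite clock, passed the trended, robust limma fit over its 2 windows, with 2.22 and 3.23 in controls and 4.39 and 4.05 with auxin (adjusted p = 0.0473). In the neighbourhood that fit called Dll3 (1.13, adjusted p = 0.00825) and, later with auxin, Msgn1, a presomitic factor downstream of T (-0.66, adjusted p = 0.00446).

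Among 26 genes of lateral mesoderm, heart and blood 11 were below and 2 above, with a median of -0.15. Tal1, the basic helix-loop-helix factor that starts blood formation, was the only gene of the 5 lists called by limma with no trend. Its neighbourhood scored 1.16 and 1.28 in controls and 0.29 and 0.30 with auxin (-0.92, adjusted p = 0.0480), while no gene at all was called by that fit without auxin replicate 1 or without auxin replicate 2. Kdr, the Vegf receptor of blood and vessel progenitors, went the other way, from -0.31 and -0.29 to 0.31 and 0.48 over its body (trended, robust limma adjusted p = 0.0362). Myh7, a heart myosin gene, differed by -0.68 and passed neither fit. Nkx2-6, a relative of Nkx2-5, was later in its neighbourhood (-0.50, trended, robust adjusted p = 0.0485), a direction opposite to the value of Nkx2-5 itself. Bmp4, Sp5, Dll3, Msgn1 and Nkx2-6 are named because they were called, after their values were seen.

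**Figure D5:**
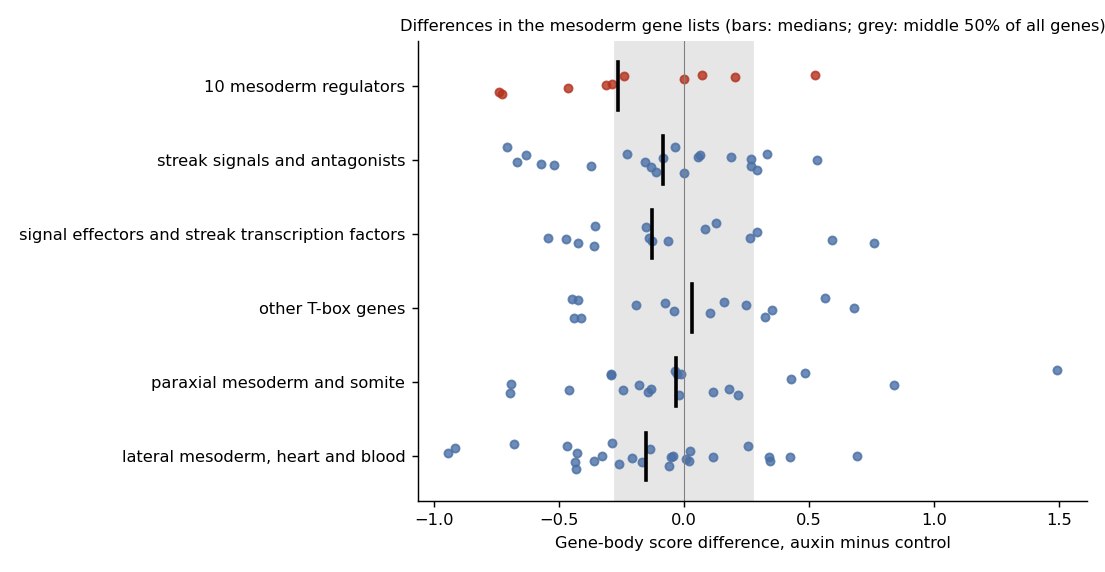
Gene-body score difference between auxin and control (horizontal axis, below 0 is later with auxin) for the 10 genes (red) and the genes of 5 lists (blue), 1 point per gene with random vertical spread. Black bars are medians, at -0.26 for the 10 genes and from -0.15 to 0.03 for the lists, and the grey band holds the middle 50% of all genes.

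For the 3 genes with the largest absolute differences over the body, likeness was taken as the mean absolute difference of the 4 profile scores, among genes on other chromosomes with at least 3 windows. Nearest to Hand2 were Cpvl (0.050 from Hand2 on average) and Rasal2 (0.081), nearest to Gsc were Usp16 (0.103) and Rnf182 (0.106), and nearest to Nkx2-5 were Rnf181 (0.065) and Nlrp12 (0.069). Cpvl scored 0.46 and 0.39 in controls and -0.35 and -0.14 with auxin, and Usp16 1.29 and 1.10 against 0.81 and 0.52. The pool held 12324 genes for Hand2, 12536 for Gsc and 12426 for Nkx2-5.

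None of the 10 genes lay within 500 kb of a region in the authors' deposited lists, which hold 63 early-to-late and 22 late-to-early regions. The nearest early-to-late region to any of the 10 was 7.16 Mb away and the nearest late-to-early one 14.7 Mb. The share of all genes within 500 kb of a listed region was not counted, so this is not read as a result about the 10 genes.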

How the data were processed

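Replication timing was measured as BrdU-labelled DNA in sorted early and late S-phase cells. Each timing score comes from the authors' deposited table, whose 4 columns were quantile normalized, per the file headers and the values, which hides genome-wide shifts. Bowtie2, SAMtools and bedtools with mm10 are named in the submitters' processing notes; the sources used here do not give how reads were filtered and smoothed or how the 2 libraries were joined. The p-values and q-values in the authors' deposited region lists were not used. The listed genes were found in RefSeq's GRCm38.p6 table, which has the coordinates of mm10.

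A window was taken to cover the 6 kb that start at its position. Of 21631 protein-coding genes, 21078 had a body score, 1063 of them (Mesp1 too) from the nearest window within 50 kb. Neighbourhoods needed 3 windows, and the starts of Mixl1 and Hand1 were taken as the gene's centre. The groups were compared by limma 3.58.1 (no trend, not robust, 2 residual degrees of freedom) in R 4.3.3, over all genes or bins, with Benjamini-Hochberg adjustment. SDs are over 2 profiles. The labels do not say that replicates were separate cultures, so a p-value reflects the spread between these profiles alone. The fits were tested on simulated data. The simulated rows were independent, and their spread did not follow the score level. That test therefore cannot show how the fits behave where neighbours share signal or spread changes with level.

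The members, lists, neighbour rules and bin minimum were chosen with earlier results of these data known. The split of the members into 2 kinds was drawn from the values given here. Named genes are the 10 members, the nearest gene on each side of each, the gene of largest difference within 500 kb, the 3 genes of largest difference per list (with at least 3 windows), the 2 most like each of 3 members, and those called in a list.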

Additional observations from a re-analysis of the deposited data

How the results depend on the processing

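T, Eomes, Gsc and Hand2 kept a lower auxin score over the body and in the neighbourhood under every alternative run for those measures. Most of these settings could not have changed that direction. Leaving out 1 profile cannot, where both auxin profiles lie below both controls, and the variance, block and threshold settings keep the same difference. Only the median, the span of the windows and their position could have done so. The calls depended on how the variance was modelled. By limma with a trended, robust variance, 1 of the 10 genes was called over the body and 1119 of all genes, against 0 with no trend, and with the variance trended on the number of windows 0 and 389. In neighbourhoods that variance called 3 of the 10 and 2780 of all genes, and, without each of the 4 profiles in turn (auxin replicate 1, auxin replicate 2, control replicate 1, control replicate 2), 1, 3, 0 and 3 of the 10 and 1576, 1871, 2495 and 2812 of all. With no trend, 369 genes were called in neighbourhoods, 1858 (1 of the 10, Hand2) with windows within 100 kb, 0 with windows within 25 kb, 16 with the median of the windows and 1671 at an adjusted p under 0.1. Leaving out 1 profile gave 0 to 1 called genes over the body, 0 to 426 in neighbourhoods, with 0 lacking either auxin profile, and 0 to 127 called bins against 707. Of bins near the 10 genes, 0 were called with no trend, 3 in bins of 100 kb, 18 with the trended variance and 14 at an adjusted p under 0.1, and of all bins 1 with no minimum of windows, 4626 with the trended variance and 3102 at that threshold. Same-numbered profiles deviated together with a correlation of 0.10 over bodies, 0.06 in neighbourhoods and 0.04 in bins, and the labels do not pair them; with the replicate number as a block, 1071 genes were called in neighbourhoods (0 of the 10), 2358 bins in all and 10 near the 10 genes, 8 of them later.

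Differences of the early genes changed sign between settings. Over the body, Hand1 was 0.015 with windows centred on their position. In neighbourhoods, Mixl1 was -0.027 with the median, Mesp1 -0.16 within 25 kb, Mesp2 0.26 and Tbx6 -0.017 within 100 kb, and against surroundings to 300 kb Mixl1 was 0.042. Leaving out 1 profile at a time, the body differences ran from -0.069 to 0.21 for Mixl1, -0.71 to 0.13 for Mesp1, -0.74 to 0.12 for Mesp2, -0.21 to 0.61 for Tbx6 and -0.20 to 0.19 for Hand1. The neighbourhood differences, the same with the trended variance, ran from -0.13 to 0.27 for Mixl1, -0.27 to 0.35 for Mesp1, -0.30 to 0.27 for Mesp2 and -0.25 to 0.34 for Tbx6. Without single profiles Mesp1 was -0.27 (auxin replicate 1) and -0.26 (control replicate 1), Mesp2 0.27 (auxin replicate 2) and 0.16 (control replicate 2), and Tbx6 -0.25 (auxin replicate 1) and -0.10 (control replicate 2). Against surroundings they ran from -0.26 to 0.15 for Mixl1, -0.53 to 0.18 for Mesp1, -0.57 to 0.083 for Mesp2, -0.48 to 0.16 for Tbx6, -0.10 to 0.10 for Hand1, -0.22 to 0.10 for Hand2 and -0.072 to 0.66 for Nkx2-5. Without a change of sign, single profiles moved the body values of T (-0.73 to -0.20), Gsc (-0.99 to -0.48) and Nkx2-5 (0.18 to 0.87), the neighbourhood value of Nkx2-5 (0.0038 to 0.67) and the value of T against its surroundings (-0.34 to -0.11, and -0.055 to 300 kb). The causes were not tested. The number of profiles limits precision, and depth is unknown.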
